A study of Mus musculus with 18 samples.

Results

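Of the 47729 reference genes listed for each of 18 mouse spleen RNA samples, 42 were chosen as genes of the cell cycle and of DNA replication, by their symbols. All 42 were among the 11455 protein-coding genes that reached 0.5 FPKM on average and entered the tests. FPKM, the unit of all levels here, counts fragments per kilobase of transcript, scaled to sequencing depth. By role, 17 act mainly in G1 and S phase (cyclins E, E2f1, the MCM helicase, origin licensing and firing, the sliding clamp, nucleotide supply and the replication checkpoint) and 25 in G2 and mitosis. The study examined LPPC, a cationic liposome coated with polymers, as a carrier of MP (membrane proteins of dendritic cells) and of antibodies, and asked how far the antibody on the complex changes splenic gene expression. All animals were C57BL/6J mice, labelled female, with a labelled age of 4 to 6 weeks, although the methods give an older range. LM (n = 3) stands for mice given LPPC/MP in repeated injections. LMA (n = 6) mice received LPPC/MP followed by LPPC/MP/CD28, and LMS (n = 6) mice received LPPC/MP followed by LPPC/MP/CTLA4 (labelled CD152), in each case with 1 or 2 later injections that the labels do not tell apart. N (n = 3) stands for naive mice without treatment. Because LMA and LMS also differ from LM in the number and timing of injections, the antibody cannot be told apart from these. CD28 and CTLA4 are the activating and the inhibitory receptor of T cells for the same ligands. The protocol text of the labels describes melanoma tumours, whereas the methods describe RNA of splenocytes. The melanocyte markers were near 0 (summed level of 6 genes at most 2.01 FPKM in any sample).

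A cell prepares to divide by loading the MCM helicase onto origins with Cdc6 and Cdt1, and cyclin E with its kinase and E2F factors then opens S phase. Cyclin A and cyclin B with Cdk1, Foxm1 and the mitotic kinases carry the cell through G2 and mitosis, and the anaphase-promoting complex with Cdc20 and Ube2c ends it. In the mouse spleen such transcripts come from activated lymphocytes, germinal centre B cells, dividing myeloid progenitors and the erythroblasts of the red pulp. In bulk RNA, fewer dividing cells and less RNA per dividing cell cannot be told apart.

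Promoters of cell cycle genes are known for CHR, CCAAT and E2F elements, so 4 of them are shown. The RefSeq promoter table (GRCm38.p6, 250 bases before to 50 after the transcription start) matched 34 of the 42 members with 35 windows. The letters searched on both strands were the cell cycle homology region CHR (TTTGAA and its variant TTCGAA), the CCAAT box (CCAAT) and E2F sites (TTCCCGC, with the variant TTGGCGC, the variant TTCGCGC and the variant TTGCCGC), and they can overlap. Cdk1 at chr10:69352863-69353162 (minus strand), Mcm7 at chr5:138171834-138172133 (minus strand) and Mki67 at chr7:135716330-135716629 (minus strand) held all 3 kinds. Cdt1 at chr8:122567765-122568064 (plus strand) is also shown, chosen after its values were seen. Its groups lay apart in more comparisons than those of any other member. Capitals mark the matches, and in Mcm7 a pair of E2F matches and a CCAAT match overlap in 1 run of capitals.
Cdk1: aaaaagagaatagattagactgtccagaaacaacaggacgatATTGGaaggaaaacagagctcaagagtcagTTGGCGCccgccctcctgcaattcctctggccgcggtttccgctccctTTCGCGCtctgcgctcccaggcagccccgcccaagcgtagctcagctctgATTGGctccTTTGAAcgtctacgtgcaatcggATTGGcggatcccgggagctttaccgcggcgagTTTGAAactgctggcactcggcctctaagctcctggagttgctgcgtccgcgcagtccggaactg
Mki67: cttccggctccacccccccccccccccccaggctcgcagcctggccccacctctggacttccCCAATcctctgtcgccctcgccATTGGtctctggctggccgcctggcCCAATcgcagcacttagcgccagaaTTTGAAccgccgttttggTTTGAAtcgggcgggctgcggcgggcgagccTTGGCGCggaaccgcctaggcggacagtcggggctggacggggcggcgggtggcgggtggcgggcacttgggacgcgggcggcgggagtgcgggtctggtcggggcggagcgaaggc
Mcm7: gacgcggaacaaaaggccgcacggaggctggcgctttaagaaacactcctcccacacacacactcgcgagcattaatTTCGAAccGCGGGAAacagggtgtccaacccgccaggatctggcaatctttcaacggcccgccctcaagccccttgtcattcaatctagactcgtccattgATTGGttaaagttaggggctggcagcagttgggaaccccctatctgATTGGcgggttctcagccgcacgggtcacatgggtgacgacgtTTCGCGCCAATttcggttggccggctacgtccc
Cdt1: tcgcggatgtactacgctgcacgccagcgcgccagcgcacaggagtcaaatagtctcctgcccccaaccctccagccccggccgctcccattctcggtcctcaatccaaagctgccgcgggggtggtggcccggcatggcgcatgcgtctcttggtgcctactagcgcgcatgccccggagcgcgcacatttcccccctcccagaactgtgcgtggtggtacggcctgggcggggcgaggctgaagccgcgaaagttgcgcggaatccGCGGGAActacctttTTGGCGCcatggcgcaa
A CHR match lay in 51.4% of the member windows and in 19.2% of all 32851 windows, a CCAAT match in 74.3% and 37.4%, an E2F match in 37.1% and 9.57%, and all 3 kinds in 8.57% and 0.499%. Of the 14 G1/S members matched, 2 had a CHR, 8 a CCAAT and 9 an E2F match, and of the 20 G2/M members 16 had a CHR, 17 a CCAAT and 3 an E2F match. These are descriptions of letters and name no bound factor.

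The samples of N and of LMS did not form uniform groups. Eif2s3y and 3 other Y-linked genes were at 0 or nearly 0 in N 1, N 2, LMS 2 and LMS 5, whereas Eif2s3y was at 31.01 to 43.0 FPKM in the other 14 samples, despite the female labels. Xist, the transcript of X inactivation, was at 48.1 to 59.9 FPKM in N 1, N 2, LMS 2 and LMS 5. It was at 4.84 to 7.20 in LM and LMA, 1.49 to 2.69 in LMS 1, 3, 4 and 6, and 0.286 in N 3. Hemoglobin transcripts took 18.4% of the summed FPKM of N 2, 16.8% of LMS 2 and 17.2% of LMS 5, and at most 1.85% of any other sample. Over the 42 members, the median absolute log2 difference was 0.09 between N 2 and LMS 2 and 0.07 between N 3 and LMS 1, against 0.62 between N 2 and N 3, 2.26 between N 1 and N 2 and 2.90 between N 1 and N 3. Within LM and within LMA no pair differed by more than 0.12. The macrophage gene Lyz2 was at 2888 FPKM in N 3 and 307 in N 1. Adgre1, Csf1r, Cd68 and Fcgr1 of the same marker list were also higher in N 3. The macrophage genes C1qa, C1qb, C1qc, Mertk and Mrc1 went the other way, with C1qa at 1.48 in N 3 and 67.3 in N 1. The T-cell gene Cd3e was at 0.843 in N 3 and 68.8 in N 1. Depth was 5.21 to 7.92 aligned gigabases per sample. Whether each sample of a group is a separate animal is not stated, and the p-values therefore measure only the spread between these samples. Over the members the nearest sample of N 2 was LMS 2 and that of N 3 was LMS 1, so that the labels N and LMS do not divide these samples as their values do. The labels were used as given, and whether samples of N and LMS were exchanged was not tested. If any were, the comparisons with N and with LMS would not compare the groups they name. For these reasons the counts of called members were also made without the samples that stood apart.

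The cell cycle score, the mean log2(FPKM + 0.5) over the 42 genes, hardly varied among the LM and LMA samples and varied widely among the N samples. It was 4.54, 4.50 and 4.55 in LM, 4.49 to 4.59 (median 4.56) in LMA, 4.44 to 4.94 (median 4.89) in LMS, and 2.25, 4.52 and 5.01 in N. Group means were 4.53 ± 0.03 in LM, 4.55 ± 0.04 in LMA, 4.76 ± 0.23 in LMS and 3.93 ± 1.47 in N (SD). All groups overlapped the range of N, since N 1 was the lowest and N 3 the highest of the 18 samples. N 1 was the lowest sample for all 42 members, which held for 17.8% of all genes tested.

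The G1/S and the G2/M genes divided the LMS samples differently. The score of the 17 G1/S genes was 4.27 to 4.31 in LM, 4.25 to 4.33 in LMA, 4.47 to 4.56 in LMS and 2.87, 4.58 and 4.62 in N, so that LMS lay above LM and LMA in all 6 samples. The score of the 25 G2/M genes was 4.65 to 4.71 in LM, 4.65 to 4.76 in LMA, 4.43 to 5.21 in LMS and 1.83, 4.49 and 5.28 in N. LMS 2 and LMS 5 lay below every LM and LMA sample on the G2/M score, and the other 4 LMS samples above. The G2/M score minus the G1/S score was 0.39 to 0.40 in LM, 0.39 to 0.44 in LMA, −0.05 and −0.04 in LMS 5 and LMS 2, 0.62 to 0.65 in LMS 1, 3, 4 and 6, and −1.04, −0.09 and 0.66 in N.

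**Figure D1:**
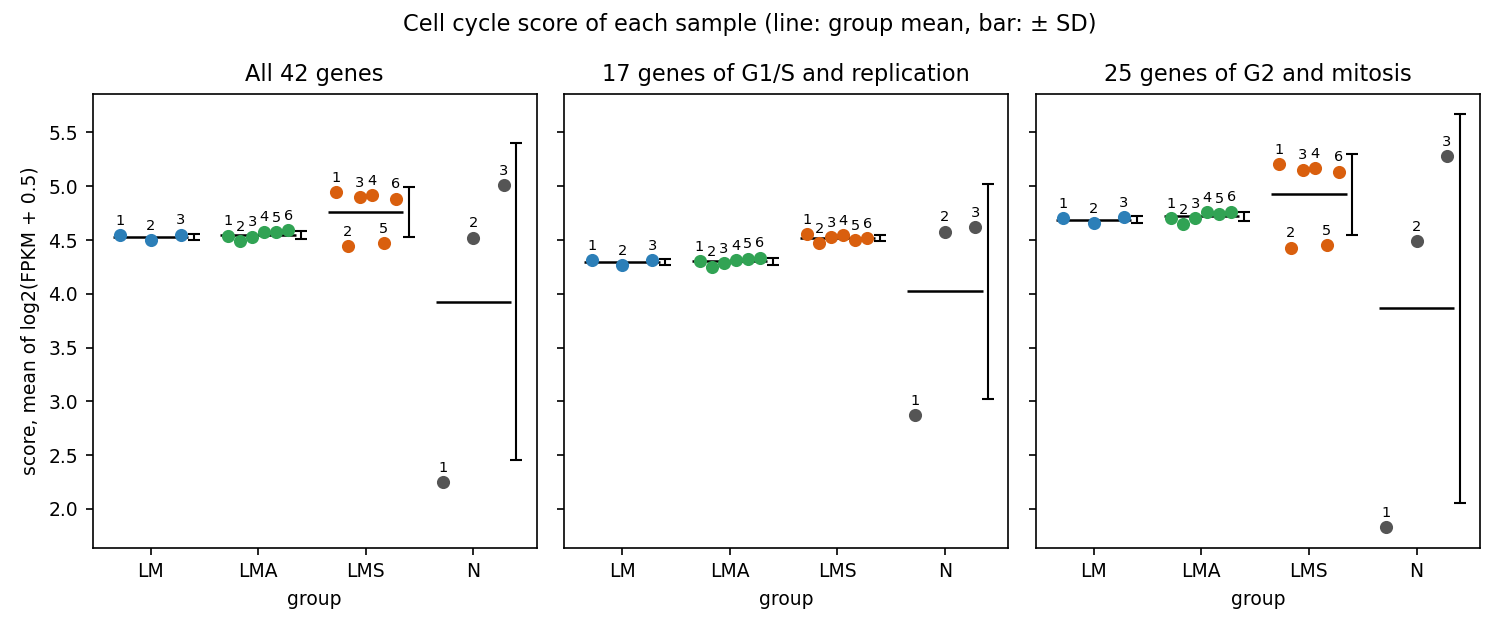
Cell cycle score per sample, as the mean log2(FPKM + 0.5) over all 42 genes, the 17 G1/S genes and the 25 G2/M genes, for LM, LMA, LMS and N from left to right, each point being 1 sample. LM and LMA samples sit together near 4.5 on the score of all 42 genes, LMS splits on the G2/M score between 4.43 and 5.21, and N runs from 1.83 to 5.28 there.

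Gene by gene, LMS 2 and LMS 5 were both below the other 4 LMS samples for 30 members (45.3% of all genes tested), 21 of the 25 G2/M and 9 of the 17 G1/S genes. They were both above for 11 members (40.5% of all genes), namely Ccne1, Mcm2, Mcm4, Mcm7, Cdc6, Cdt1 and Rrm2 of G1/S and Mki67, Birc5, Ube2c and Nusap1 of G2/M. N 2 stood to N 3 as LMS 2 and LMS 5 to the other LMS samples in all 30 and all 11 of these genes (43.8% and 39.7% of all genes). Ccne2 was the remaining member. N 2 and N 3 were both above all LM and LMA samples for 15 members (20.3% of all genes) and both below for Cdt1 only (12.5% of all genes).

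**Figure D2:**
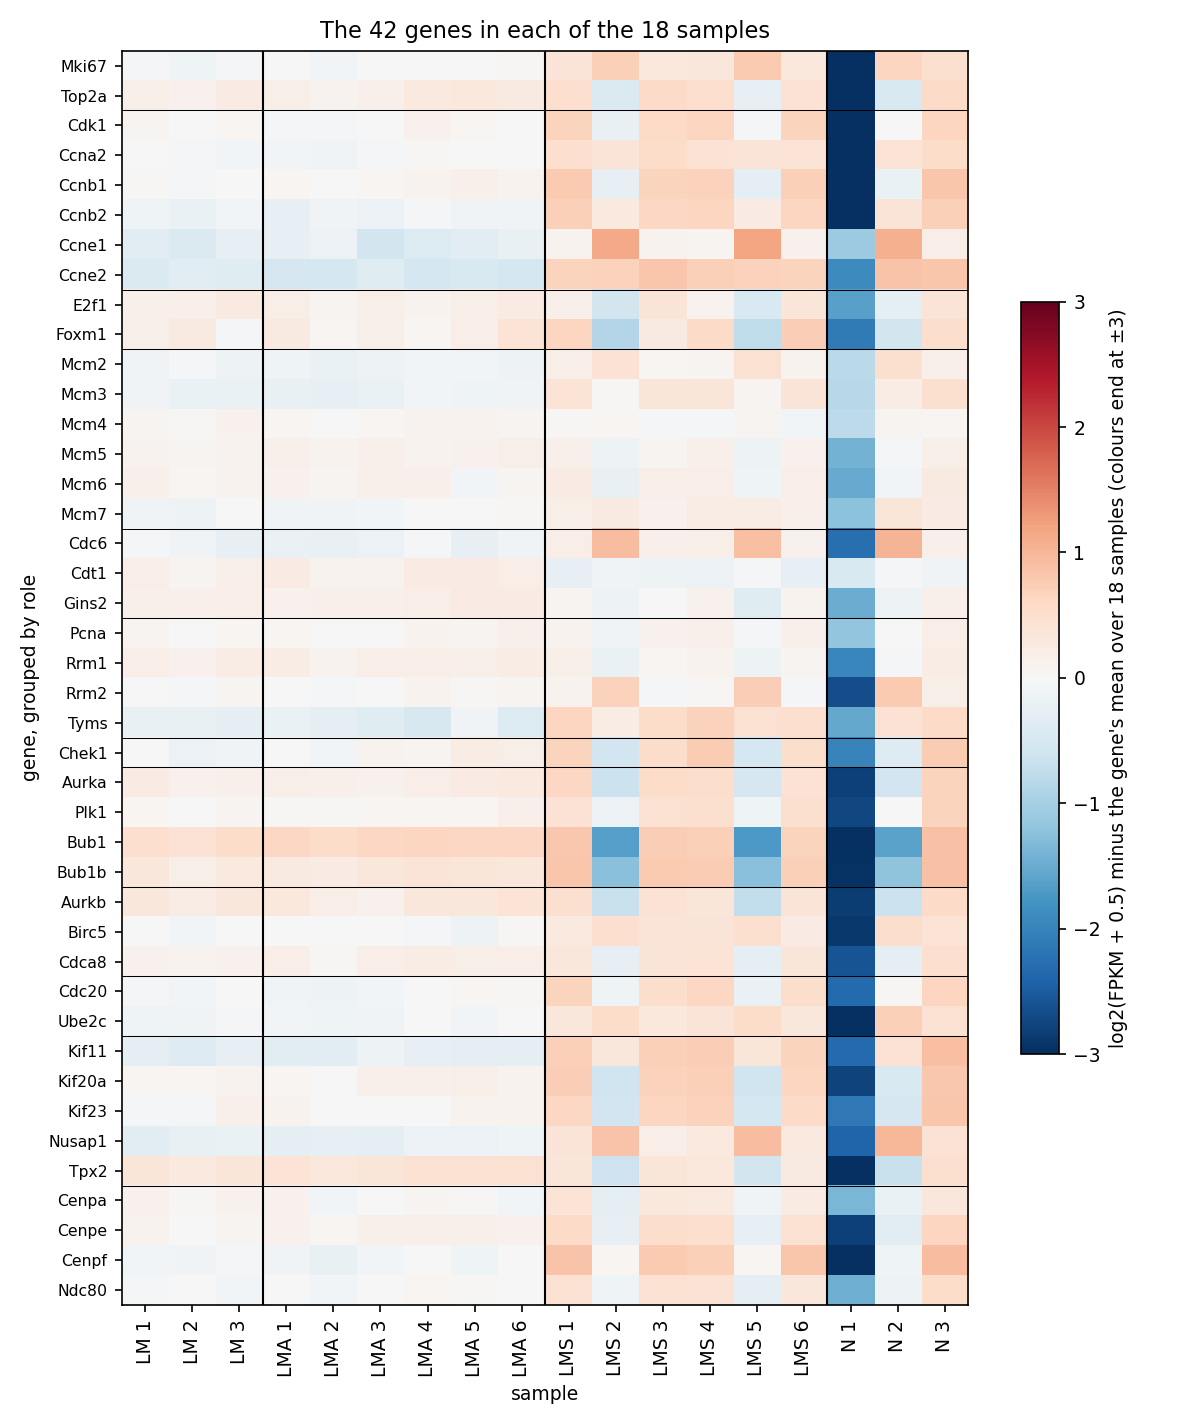
Log2 deviation of each of the 42 genes from its mean over the 18 samples, with genes down the page by role and samples across by group, LM, LMA, LMS and N, and colours ending at ±3. N 1 is the lowest sample for all 42 genes, and LMS 2, LMS 5 and N 2 share a pattern in which most G2/M genes are low and Ccne1, Cdc6 and Rrm2 are high.

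Levels of LM and N are given in the order of samples 1, 2 and 3. Among the cyclins, those of the E type open S phase, cyclin A acts in S phase and G2, and those of the B type pair with the kinase Cdk1 at mitotic entry. Ccne1 was at 6.82, 6.33 and 7.28 FPKM in LM, 5.80 to 7.58 (median 6.98) in LMA, 19.8 and 20.3 in LMS 2 and LMS 5, 9.26 to 9.52 in the other LMS samples, and 3.81, 18.7 and 10.1 in N. Ccne2 was at 5.23, 5.74 and 5.47 FPKM in LM, 4.85 to 5.53 (median 4.92) in LMA, 12.0 and 11.9 in LMS 2 and LMS 5, 11.7 to 13.3 in the other LMS samples, and 1.55, 13.6 and 13.3 in N. Both were higher in every LMS sample than in any LM or LMA sample, and Ccne1 was highest in LMS 2, LMS 5 and N 2, while Ccne2 was nearly even across LMS, N 2 and N 3. Ccna2 was at 39.9, 38.1 and 37.6 FPKM in LM, 36.7 to 41.0 (median 39.0) in LMA, 52.1 and 52.0 in LMS 2 and LMS 5, 53.3 to 58.8 in the other LMS samples, and 3.69, 53.4 and 59.0 in N. Ccnb1 was at 28.7, 26.8 and 28.2 FPKM in LM, 28.1 to 31.2 (median 29.9) in LMA, 23.7 and 23.2 in LMS 2 and LMS 5, 45.1 to 48.8 in the other LMS samples, and 2.14, 24.5 and 50.7 in N. Cdk1 was at 18.2, 17.1 and 17.9 FPKM in LM, 16.5 to 18.9 (median 17.2) in LMA, 14.6 and 16.5 in LMS 2 and LMS 5, 26.2 to 27.6 in the other LMS samples, and 1.53, 16.95 and 27.3 in N. Ccna2 was above LM and LMA in all LMS samples, whereas Ccnb1 was below them in LMS 2 and LMS 5 and above in the other LMS samples, and Cdk1 in LMS 2 and LMS 5 was near or below the lower end of LM and LMA. Ccnb2 was at 26.0, 24.7 and 26.7 FPKM in LM, 23.9 to 27.1 (median 26.4) in LMA, 34.7 and 33.7 in LMS 2 and LMS 5, 43.9 to 46.6 in the other LMS samples, and 2.96, 37.6 and 47.1 in N, above LM and LMA in every LMS sample.

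The transcription factors of both phases were low in the same samples. E2f1 drives the genes of S phase entry and Foxm1 those of G2 and mitosis. E2f1 was at 8.52, 8.60 and 9.27 FPKM in LM, 8.09 to 9.09 (median 8.65) in LMA, 5.10 and 5.48 in LMS 2 and LMS 5, 8.22 to 10.1 in the other LMS samples, and 2.14, 6.18 and 10.2 in N. Foxm1 was at 15.2, 16.2 and 12.9 FPKM in LM, 13.9 to 17.8 (median 15.2) in LMA, 7.06 and 7.73 in LMS 2 and LMS 5, 16.3 to 22.6 in the other LMS samples, and 2.67, 8.98 and 19.4 in N. Both were lowest in N 1, followed by LMS 2, LMS 5 and N 2, and in the other LMS samples overlapped LM and LMA or exceeded them.

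Mcm2 to Mcm7 encode the helicase that unwinds DNA at the fork. Mcm2 was at 24.3, 25.1 and 23.7 FPKM in LM, 22.8 to 24.9 (median 23.9) in LMA, 35.8 and 36.3 in LMS 2 and LMS 5, 27.5 to 30.1 in the other LMS samples, and 14.8, 36.7 and 29.4 in N. Mcm3 was at 30.1, 28.1 and 28.2 FPKM in LM, 27.3 to 30.5 (median 28.9) in LMA, 33.2 and 34.5 in LMS 2 and LMS 5, 41.8 to 43.3 in the other LMS samples, and 17.9, 37.9 and 45.3 in N. All LMS samples were above all LM and LMA samples for both, with LMS 2 and LMS 5 the highest LMS samples for Mcm2 and the lowest for Mcm3. Mcm7 was at 36.7, 35.9 and 39.7 FPKM in LM, 36.8 to 40.8 (median 38.2) in LMA, 47.7 and 46.8 in LMS 2 and LMS 5, 43.8 to 46.0 in the other LMS samples, and 16.6, 50.8 and 47.2 in N. Mcm4 was at 31.9, 31.2 and 33.0 FPKM in LM, 29.9 to 32.8 (median 31.9) in LMA, 31.8 and 32.0 in LMS 2 and LMS 5, 28.7 to 31.1 in the other LMS samples, and 17.4, 32.0 and 31.7 in N. Mcm5 was at 41.8, 40.8 and 42.1 FPKM in LM, 41.6 to 44.0 (median 42.8) in LMA, 34.7 and 34.9 in LMS 2 and LMS 5, 40.8 to 43.5 in the other LMS samples, and 14.2, 37.1 and 44.2 in N. Mcm7 separated LMS from LM and LMA, and Mcm4 and Mcm5 did not. Mcm6 was at 52.7, 49.8 and 51.8 FPKM in LM, 45.2 to 53.2 (median 51.5) in LMA, 41.1 and 43.3 in LMS 2 and LMS 5, 54.8 to 57.2 in the other LMS samples, and 16.3, 44.9 and 58.1 in N, with LMS 2 and LMS 5 the lowest LMS samples.

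Cdc6 and Cdt1 load the helicase, and Gins2 is part of the complex that activates it. Cdt1 (ENSMUSG00000006585, chr8:122568015-122573128 in mm10) was the member whose groups lay apart in the most comparisons, 4 of 6. Cdt1 was at 30.9, 28.2 and 30.3 FPKM in LM, 28.5 to 31.9 (median 31.1) in LMA, 24.7 and 25.4 in LMS 2 and LMS 5, 22.2 to 23.9 in the other LMS samples, and 19.2, 25.5 and 24.8 in N. Every LM and LMA sample lay above every LMS and N sample. Cdc6 was at 4.86, 4.74 and 4.28 FPKM in LM, 4.27 to 4.88 (median 4.44) in LMA, 10.2 and 10.1 in LMS 2 and LMS 5, 5.61 to 5.98 in the other LMS samples, and 0.664, 10.9 and 5.77 in N. Gins2 was at 8.09, 8.13 and 8.46 FPKM in LM, 8.03 to 8.63 (median 8.27) in LMA, 6.43 and 5.55 in LMS 2 and LMS 5, 7.33 to 7.999 in the other LMS samples, and 2.27, 6.49 and 8.15 in N. Cdc6 was highest in LMS 2, LMS 5 and N 2, which were the lowest for Gins2 apart from N 1. The highest sample was 1.66 times the lowest for Cdt1, against 44.2 times for Bub1.

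The sliding clamp, the suppliers of deoxynucleotides and the checkpoint kinase differed among themselves. Pcna, the clamp that holds polymerases on DNA, was the most abundant member. Pcna was at 138, 131 and 136 FPKM in LM, 131 to 145 (median 137) in LMA, 121 and 127 in LMS 2 and LMS 5, 141 to 146 in the other LMS samples, and 57.5, 132 and 149.98 in N. Rrm2 was at 45.3, 43.2 and 47.5 FPKM in LM, 43.2 to 48.0 (median 45.8) in LMA, 73.0 and 74.5 in LMS 2 and LMS 5, 42.8 to 48.2 in the other LMS samples, and 6.70, 77.8 and 50.3 in N. Rrm2, the regulated subunit of ribonucleotide reductase, was high in LMS 2, LMS 5 and N 2, where its partner subunit Rrm1 was low. Rrm1 was at 59.2, 56.1 and 60.1 FPKM in LM, 55.6 to 60.3 (median 59.1) in LMA, 45.0 and 46.2 in LMS 2 and LMS 5, 53.6 to 58.5 in the other LMS samples, and 12.9, 49.5 and 60.6 in N. Tyms was at 4.84, 4.86 and 4.57 FPKM in LM, 4.00 to 5.34 (median 4.51) in LMA, 6.82 and 8.12 in LMS 2 and LMS 5, 8.32 to 9.66 in the other LMS samples, and 1.67, 7.95 and 8.82 in N. Tyms, which makes thymidylate, was above LM and LMA in every LMS sample. Chek1 was at 4.59, 3.99 and 4.23 FPKM in LM, 4.33 to 5.43 (median 4.89) in LMA, 2.91 and 3.03 in LMS 2 and LMS 5, 6.82 to 8.09 in the other LMS samples, and 0.756, 3.37 and 8.09 in N. Chek1, the kinase that restrains the cycle when forks stall, was the least abundant member on average, and LMS and N spread to both sides of LM and LMA.

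Bub1, the member with the widest spread over the samples, belongs to the spindle checkpoint. Bub1 and Bub1b hold back anaphase until chromosomes are attached, and Aurka and Plk1 build the spindle. Bub1 was at 33.7, 32.1 and 34.9 FPKM in LM, 34.7 to 37.0 (median 36.4) in LMA, 7.16 and 6.81 in LMS 2 and LMS 5, 37.7 to 41.96 in the other LMS samples, and 0.987, 7.44 and 43.7 in N. Bub1b was at 38.4, 34.2 and 37.2 FPKM in LM, 36.1 to 39.6 (median 38.7) in LMA, 12.4 and 12.4 in LMS 2 and LMS 5, 50.2 to 54.9 in the other LMS samples, and 3.46, 12.8 and 56.8 in N. Aurka was at 27.1, 25.3 and 25.3 FPKM in LM, 25.1 to 28.2 (median 26.1) in LMA, 14.5 and 15.9 in LMS 2 and LMS 5, 31.2 to 35.6 in the other LMS samples, and 2.85, 15.1 and 36.7 in N. For all 3 genes LMS 2, LMS 5 and N 2 lay below every LM and LMA sample and LMS 1, 3, 4 and 6 and N 3 above, and N 1 was lowest. Plk1 was at 18.4, 17.6 and 18.9 FPKM in LM, 18.1 to 19.7 (median 18.5) in LMA, 15.7 and 16.3 in LMS 2 and LMS 5, 24.2 to 24.9 in the other LMS samples, and 2.26, 17.9 and 28.5 in N, in the same order except that N 2 lay within LM.

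Of the proliferation markers, Mki67 encodes a coat protein of mitotic chromosomes and Top2a the enzyme that untangles them. Mki67 was at 68.1, 65.3 and 69.0 FPKM in LM, 66.9 to 72.3 (median 70.4) in LMA, 116 and 122 in LMS 2 and LMS 5, 87.9 to 92.2 in the other LMS samples, and 5.18, 112 and 99.6 in N. Top2a was at 77.2, 74.6 and 80.5 FPKM in LM, 72.7 to 83.9 (median 79.0) in LMA, 49.9 and 57.3 in LMS 2 and LMS 5, 92.0 to 100.5 in the other LMS samples, and 6.42, 49.5 and 101 in N. Mki67 was above LM and LMA in every LMS sample and highest in LMS 5 and LMS 2, where Top2a was below LM and LMA. The chromosomal passenger complex was likewise divided. Birc5 was at 34.2, 32.4 and 34.0 FPKM in LM, 31.1 to 35.2 (median 34.2) in LMA, 49.3 and 48.1 in LMS 2 and LMS 5, 41.3 to 45.1 in the other LMS samples, and 4.19, 49.6 and 46.1 in N. Aurkb was at 38.7, 35.7 and 38.8 FPKM in LM, 33.4 to 40.5 (median 38.4) in LMA, 19.1 and 18.1 in LMS 2 and LMS 5, 39.3 to 42.6 in the other LMS samples, and 3.83, 19.2 and 45.3 in N. Birc5 was above LM and LMA in all LMS samples, and Aurkb, the kinase of the same complex, was below them in LMS 2 and LMS 5. Cdca8 was at 27.9, 27.1 and 27.6 FPKM in LM, 25.8 to 29.7 (median 29.1) in LMA, 21.4 and 20.8 in LMS 2 and LMS 5, 32.3 to 33.7 in the other LMS samples, and 3.82, 20.8 and 36.3 in N, and is a targeting subunit of the complex.

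The partners of the anaphase-promoting complex were likewise divided. Ube2c was at 51.3, 52.4 and 55.0 FPKM in LM, 51.0 to 56.8 (median 52.9) in LMA, 82.8 and 81.9 in LMS 2 and LMS 5, 69.7 to 72.8 in the other LMS samples, and 6.36, 91.5 and 76.9 in N. Cdc20 was at 21.5, 20.9 and 22.2 FPKM in LM, 19.8 to 22.9 (median 21.2) in LMA, 20.1 and 19.1 in LMS 2 and LMS 5, 31.7 to 35.2 in the other LMS samples, and 3.94, 22.3 and 34.4 in N. Ube2c, the enzyme that starts ubiquitin chains, was above LM and LMA in all LMS samples, and Cdc20, the activator, overlapped with them. Of the spindle proteins, Nusap1 bundles microtubules. Nusap1 was at 15.3, 16.3 and 16.6 FPKM in LM, 15.7 to 17.5 (median 16.4) in LMA, 34.999 and 36.7 in LMS 2 and LMS 5, 22.04 to 25.2 in the other LMS samples, and 3.22, 38.5 and 26.0 in N. Kif11 was at 13.1, 12.2 and 13.7 FPKM in LM, 12.9 to 14.6 (median 13.5) in LMA, 20.8 and 21.1 in LMS 2 and LMS 5, 26.0 to 27.5 in the other LMS samples, and 2.81, 22.1 and 30.7 in N. Tpx2 was at 35.4, 34.0 and 35.4 FPKM in LM, 34.3 to 37.9 (median 37.0) in LMA, 17.8 and 18.6 in LMS 2 and LMS 5, 33.1 to 35.6 in the other LMS samples, and 2.06, 17.2 and 38.6 in N. Nusap1 and Kif11, the motor that separates spindle poles, were above LM and LMA in all LMS samples, whereas Tpx2, which targets Aurora A to the spindle, was far below them in LMS 2 and LMS 5, just below them in LMS 6 and within their range in LMS 1, 3 and 4.

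Most of the remaining mitotic members were divided as Bub1 was, at a smaller scale. Kif20a and Kif23 are motors of cytokinesis. Kif20a was at 15.5, 15.5 and 16.0 FPKM in LM, 14.8 to 16.9 (median 16.3) in LMA, 9.56 and 9.71 in LMS 2 and LMS 5, 23.6 to 24.996 in the other LMS samples, and 1.72, 10.7 and 26.2 in N. Kif23 was at 19.3, 19.1 and 22.1 FPKM in LM, 19.8 to 21.3 (median 20.6) in LMA, 13.2 and 13.5 in LMS 2 and LMS 5, 29.6 to 32.5 in the other LMS samples, and 4.06, 13.9 and 35.5 in N. In both genes LM and LMA lay between LMS 2 and LMS 5 below and the other LMS samples above. Cenpa, the centromeric histone, Cenpe, a kinetochore motor, and Ndc80, which binds microtubules, followed them. Cenpa was at 51.4, 48.5 and 51.2 FPKM in LM, 44.3 to 51.7 (median 47.4) in LMA, 38.4 and 44.1 in LMS 2 and LMS 5, 56.1 to 62.4 in the other LMS samples, and 18.1, 41.2 and 60.2 in N. Cenpe was at 13.1, 12.2 and 12.8 FPKM in LM, 12.7 to 13.5 (median 13.3) in LMA, 10.0 and 10.1 in LMS 2 and LMS 5, 16.7 to 18.4 in the other LMS samples, and 1.29, 9.48 and 19.3 in N. Ndc80 was at 10.5, 10.8 and 10.2 FPKM in LM, 10.2 to 11.2 (median 10.7) in LMA, 9.79 and 8.66 in LMS 2 and LMS 5, 13.7 to 15.03 in the other LMS samples, and 3.59, 9.60 and 16.1 in N. Cenpf, a large kinetochore protein, differed from these in that every LMS sample was above LM and LMA. Cenpf was at 8.38, 8.26 and 8.53 FPKM in LM, 7.65 to 9.02 (median 8.37) in LMA, 9.35 and 9.36 in LMS 2 and LMS 5, 15.04 to 16.6 in the other LMS samples, and 0.449, 8.15 and 17.3 in N.

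The comparison of LMA with N asked how far CD28 modulation after LPPC/MP differs from no treatment. In limma with Benjamini-Hochberg adjustment over all genes, 4 of 42 members rose in LMA (13.6% of all genes rose) and none fell (21.9% of all genes fell). Cdt1 rose (log2 fold change 0.40, SE 0.08, adjusted p = 0.00202), with every LMA sample above every N sample, and was the only member whose groups did not overlap (11.8% of all genes were above in this way). Tpx2 (log2 fold change 1.62, SE 0.55, adjusted p = 0.0316), Bub1 (log2 fold change 2.19, SE 0.80, adjusted p = 0.0431) and Gins2 (log2 fold change 0.68, SE 0.24, adjusted p = 0.0382) also rose, but for these N 3 lay within or above the LMA samples. The median log2 fold change was 0.63 over the members and −0.13 over all genes.

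Many members had positive log2 fold changes with large standard errors. Mki67 (log2 fold change 0.82, SE 0.62, adjusted p = 0.301), Top2a (log2 fold change 1.27, SE 0.54, adjusted p = 0.0758) and Ccnb1 (log2 fold change 1.01, SE 0.60, adjusted p = 0.191) did not pass the test. Neither did Cdk1 (log2 fold change 0.84, SE 0.54, adjusted p = 0.223), Ccna2 (log2 fold change 0.72, SE 0.55, adjusted p = 0.304), Plk1 (log2 fold change 0.75, SE 0.47, adjusted p = 0.219) and Birc5 (log2 fold change 0.62, SE 0.50, adjusted p = 0.323). All of these act from S phase to the end of mitosis. Among the transcription factors and G1/S genes, the values were log2 fold change 0.91, SE 0.45, adjusted p = 0.123 for Foxm1, log2 fold change 0.67, SE 0.31, adjusted p = 0.103 for E2f1 and log2 fold change −0.38, SE 0.36, adjusted p = 0.398 for Ccne1. Mcm2 (log2 fold change −0.07, SE 0.19, adjusted p = 0.771), Pcna (log2 fold change 0.38, SE 0.20, adjusted p = 0.144), Rrm2 (log2 fold change 0.60, SE 0.49, adjusted p = 0.337) and Cdc6 (log2 fold change 0.20, SE 0.46, adjusted p = 0.733) did not pass.

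These counts turned on single N samples. Without N 1, 1 member rose (Cdt1; 7.92% of all genes rose) and 14 fell in LMA (15.3% of all genes fell), and without N 3, 28 rose (27.8% of all genes) and none fell (38.2% of all genes, with 66.0% called in either direction). The log2 fold change of Bub1 was 0.97, adjusted p = 0.36, when N 1 was left out, and 3.42, adjusted p = 0.00107, when N 3 was left out. That of Mki67 was −0.58, adjusted p = 0.00212, and 1.49, adjusted p = 0.0576, in these fits. With N 1, N 2, LMS 2 and LMS 5 all left out, which keeps N 3 as the lone N sample with the spread of the other groups, 34 members fell in LMA (36.0% of all genes) and 1 rose (25.6% of all genes). With N 3 and LMS 1, 3, 4 and 6 left out, 27 rose (35.7% of all genes) and none fell (44.2% of all genes). Cdt1 passed in all 32 alternatives, with log2 fold changes of 0.27 to 0.53 and adjusted p of 0.000281 to 0.0214, whereas Tpx2 passed in 27, Gins2 in 21 and Bub1 in 17. The 9 T-cell markers summed to 49.3 to 77.7 FPKM in LMA and 6.75 to 482 in N, and the 10 macrophage markers to 1922 to 2057 in LMA and 561 to 3428 in N. Lyz2 was the largest part of every macrophage sum. The mean log2(FPKM + 0.5) of the macrophage markers was 4.59 to 4.86 in LMA and 3.70 to 4.97 in N. The 12 erythroid markers summed to 1372 to 2650 FPKM in LMA and 115 to 84218 in N, and no marker of these lists was at 0 in every sample. The 10 neutrophil precursor markers summed to 652 to 892 FPKM in LMA and 3.61 to 134 in N, and the 8 mature neutrophil markers to 1479 to 2006 in LMA and 23.9 to 450.1 in N. The 4 germinal centre B-cell markers summed to 9.36 to 10.7 FPKM in LMA and 2.49 to 9.0 in N. The neutrophil and germinal centre sums thus separated the groups, but not every gene in them did. S100a8 and S100a9 were the largest parts of the mature neutrophil sums. Cxcr2 was at 2.80 to 3.75 FPKM in LMA and 8.90, 7.86 and 0.221 in N. Csf3r was at 6.51 to 8.46 in LMA and 27.6, 24.2 and 0.88 in N. Retnlg and Mmp9 overlapped, and S100a8, S100a9, Ly6g and Mmp8 did not. Each germinal centre gene overlapped. The part of the cell types above in the result was not tested.

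**Figure D3:**
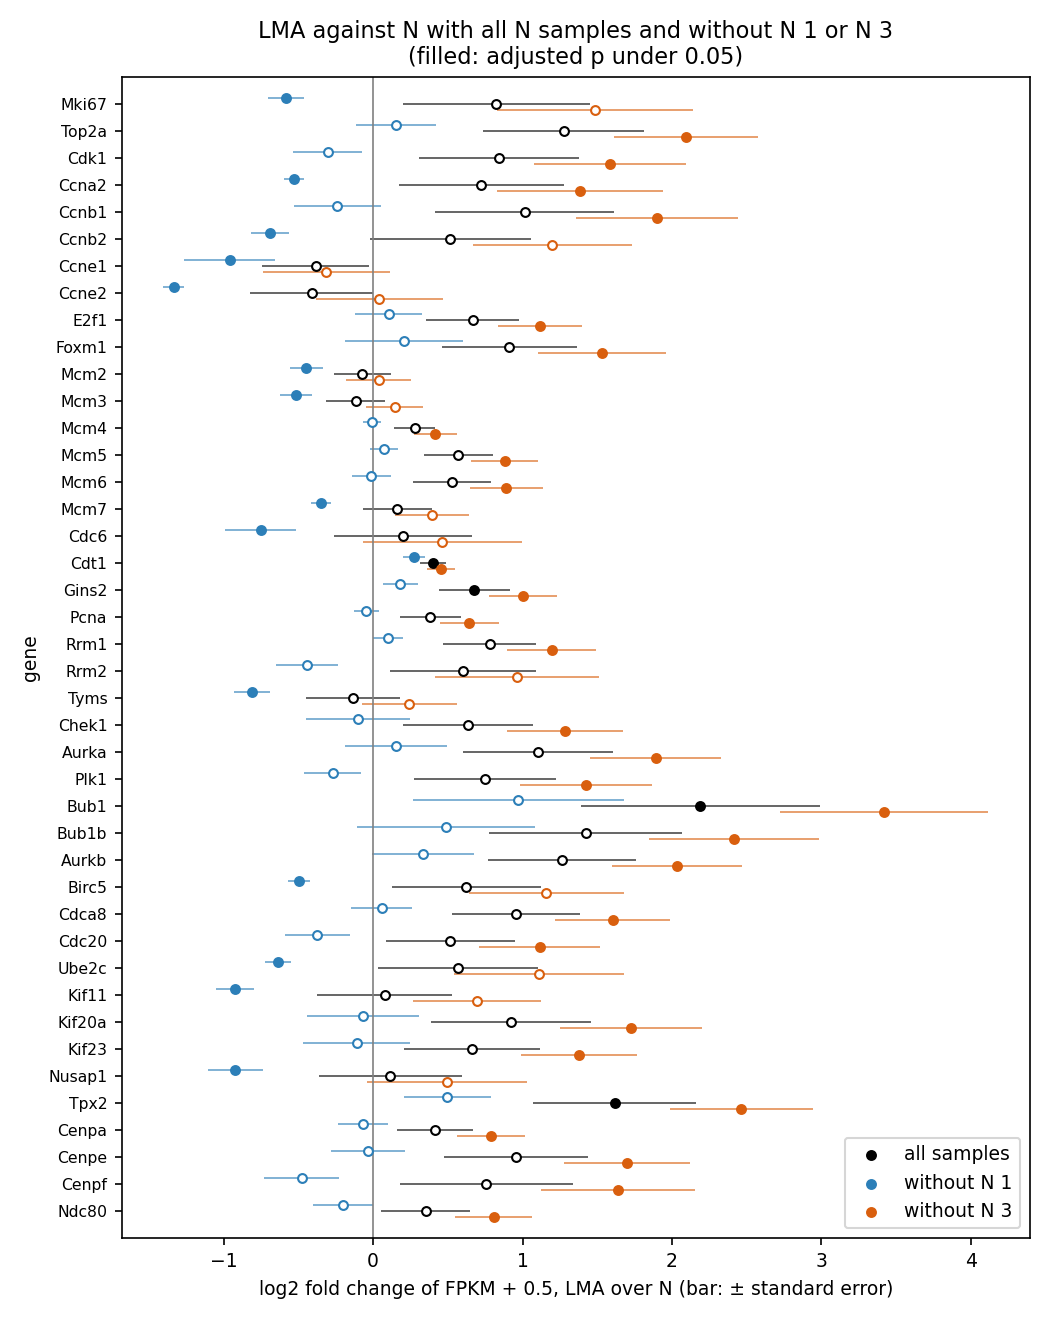
Log2 fold change of LMA over N for each of the 42 genes with its standard error from limma, for all samples, without N 1 and without N 3, with filled points where the adjusted p is under 0.05. With all samples 4 genes pass, without N 1 14 genes are lower and 1 higher, and without N 3 28 are higher.

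LM against N, the comparison of LPPC/MP alone with no treatment, shares its N samples with the preceding one. In limma 1 of 42 members rose in LM, Cdt1 (log2 fold change 0.37, SE 0.10, adjusted p = 0.0128), and none fell (9.22% of all genes rose and 15.8% fell). Cdt1 was also the only member whose samples did not overlap (13.2% of all genes were above in this way). The median log2 fold change was 0.60 over the members and −0.11 over all genes, with log2 fold change 0.77, SE 0.72, adjusted p = 0.44 for Mki67, log2 fold change 0.87, SE 0.62, adjusted p = 0.307 for Cdk1 and log2 fold change −0.39, SE 0.41, adjusted p = 0.494 for Ccne1. Without N 1, 12 members fell in LM (12.0% of all genes fell) and none rose (5.88% of all genes), and without N 3, 27 rose (24.4% of all genes, with 58.2% called in either direction). Without N 1, N 2, LMS 2 and LMS 5, 32 fell (34.4% of all genes) and 1 rose (25.8% of all genes). The summed T-cell markers were at 70.6 to 96.5 FPKM in LM and 6.75 to 482 in N, and the macrophage markers at 1924 to 2009 in LM and 561 to 3428 in N. The mean log2(FPKM + 0.5) of the macrophage markers was 4.84 to 5.02 in LM and 3.70 to 4.97 in N. The neutrophil precursor markers were at 476 to 559 FPKM in LM and 3.61 to 134 in N, the mature neutrophil markers at 1042 to 1209 in LM and 23.9 to 450.1 in N, and the germinal centre B-cell markers at 9.94 to 10.2 in LM and 2.49 to 9.0 in N, all without overlap of the sums. Of the mature neutrophil genes, Retnlg, Cxcr2, Csf3r and Mmp9 were higher in N 1 and N 2 than in any LM sample. S100a8, S100a9, Ly6g and Mmp8 were lower in every N sample. Chil3 of the neutrophil precursor genes and each germinal centre gene overlapped. The part of these cell types in the result was not tested. Cdt1 passed in 29 of 32 alternatives, with adjusted p between 0.00206 and 0.236.

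LMA against LM asked what the CD28 step adds to LPPC/MP. In limma 0 of 42 members passed (0.0% of all genes), and 0 members and 133 of all genes had an unadjusted p under 0.05. No member separated the groups (6.25% of all genes did). Log2 fold changes ranged from −0.11 in Ccne2 to 0.18 in Chek1, named after their values were seen. Mki67 (log2 fold change 0.06, SE 0.62, adjusted p = 1) and Cdt1 (log2 fold change 0.03, SE 0.08, adjusted p = 1) did not pass. The standard error of Mki67 rests on the spread of all 4 groups, N included, so that a small difference could not be seen in this fit. Fitted with these groups alone, again 0 members passed (0.419% of all genes). The same count of 0 members was found without N 1, N 2, LMS 2 and LMS 5 (0.576% of all genes) and without N 3 and LMS 1, 3, 4 and 6 (0.0786% of all genes). The neutrophil precursor markers summed to 652 to 892 FPKM in LMA and 476 to 559 in LM, and the erythroid markers to 1372 to 2650 in LMA and 4756 to 7089 in LM, both without overlap.

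LMA against LMS set the activating against the inhibitory antibody on the complex. In limma Cdt1 was the 1 member that was higher in LMA (log2 fold change 0.36, SE 0.07, adjusted p = 0.000828; 11.3% of all genes were higher), and 3 members were lower (19.3% of all genes), all of them G1/S genes. The 3 were Ccne2 (log2 fold change −1.19, SE 0.33, adjusted p = 0.0121), Tyms (log2 fold change −0.82, SE 0.26, adjusted p = 0.0224) and Mcm3 (log2 fold change −0.44, SE 0.16, adjusted p = 0.0474). Cdt1 and Gins2 were above LMS in every LMA sample (12.4% of all genes) and 15 members below (17.5% of all genes), namely Ccne1, Ccne2, Mcm2, Mcm3, Mcm7, Cdc6 and Tyms of G1/S and Mki67, Ccna2, Ccnb2, Birc5, Ube2c, Kif11, Nusap1 and Cenpf of G2/M. The median log2 fold change was −0.19 over the members and −0.12 over all genes.

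Of the members that did not pass, Ccne1 came nearest among the set followed throughout (log2 fold change −0.78, SE 0.29, adjusted p = 0.0539). Ccna2 (log2 fold change −0.48, SE 0.45, adjusted p = 0.46), Mki67 (log2 fold change −0.49, SE 0.51, adjusted p = 0.516) and Birc5 (log2 fold change −0.41, SE 0.40, adjusted p = 0.484) had groups without overlap but did not pass. The same held for Cdc6 (log2 fold change −0.58, SE 0.38, adjusted p = 0.277) and Mcm2 (log2 fold change −0.35, SE 0.16, adjusted p = 0.104). The standard errors of these members rest on the spread of all 4 groups, N included. Not passing therefore does not show that LMA and LMS were alike for them. Cdk1 (log2 fold change −0.37, SE 0.44, adjusted p = 0.57), Plk1 (log2 fold change −0.19, SE 0.39, adjusted p = 0.747), Foxm1 (log2 fold change 0.09, SE 0.37, adjusted p = 0.879), E2f1 (log2 fold change 0.16, SE 0.25, adjusted p = 0.675) and Rrm2 (log2 fold change −0.21, SE 0.40, adjusted p = 0.73) had overlapping groups.

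The set of called genes depended on which LMS and N samples were in the fit, whereas Cdt1 and Ccne2 passed in all 32 alternatives. Cdt1 had log2 fold changes of 0.28 to 0.49 and adjusted p of 5.02e-08 to 0.0126, and Ccne2 had −1.25 to −1.10 and 9.29e-11 to 0.0423. Without N 1, 15 members were lower in LMA (22.1% of all genes) and 1 higher (12.6% of all genes). Without N 1, N 2, LMS 2 and LMS 5, 34 members were lower (44.0% of all genes) and 4 higher (Cdt1, Gins2, Mcm4 and Rrm1), where 72.0% of all genes were called in either direction. Without N 3 and LMS 1, 3, 4 and 6, a choice also made after the values were seen, 3 were lower (Ccne1, Ccne2 and Mcm2; 42.2% of all genes) and 6 higher (Cdt1, E2f1, Foxm1, Bub1, Bub1b and Aurkb; 36.6% of all genes). The log2 fold change of Bub1 was −0.13, adjusted p = 0.00266, without N 1, N 2, LMS 2 and LMS 5, and 2.30, adjusted p = 0.000317, without N 3 and LMS 1, 3, 4 and 6. For Ccne1 these values were −0.43, adjusted p = 4.05e-05, and −1.49, adjusted p = 0.00354. The summed T-cell markers were at 49.3 to 77.7 FPKM in LMA and 28.7 to 319 in LMS, the macrophage markers at 1922 to 2057 in LMA and 535 to 3271 in LMS, and the erythroid markers at 1372 to 2650 in LMA and 555 to 75061 in LMS. The summed markers of neutrophil precursors were at 652 to 892 FPKM in LMA and 21.8 to 128 in LMS, those of mature neutrophils at 1479 to 2006 in LMA and 127 to 433 in LMS, and those of NK cells at 10.2 to 15.4 in LMA and 17.9 to 138 in LMS, all without overlap of the sums. Of the mature neutrophil genes, Cxcr2 and Csf3r were higher in LMS 2 and LMS 5 than in any LMA sample. Retnlg and Mmp9 overlapped, and S100a8, S100a9, Ly6g and Mmp8 were lower in every LMS sample. Of the NK genes, Gzma, Ncr1 and Klrd1 were higher in every LMS sample than in any LMA sample. Klrb1c, Prf1 and Nkg7 overlapped, and Nkg7 was lower in LMS 1, LMS 3 and LMS 4 than in any LMA sample. The part of these cell types in the result was not tested. Of the other calls, Tyms passed in 29 of 32 alternatives and Mcm3 in 11.

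**Figure D4:**
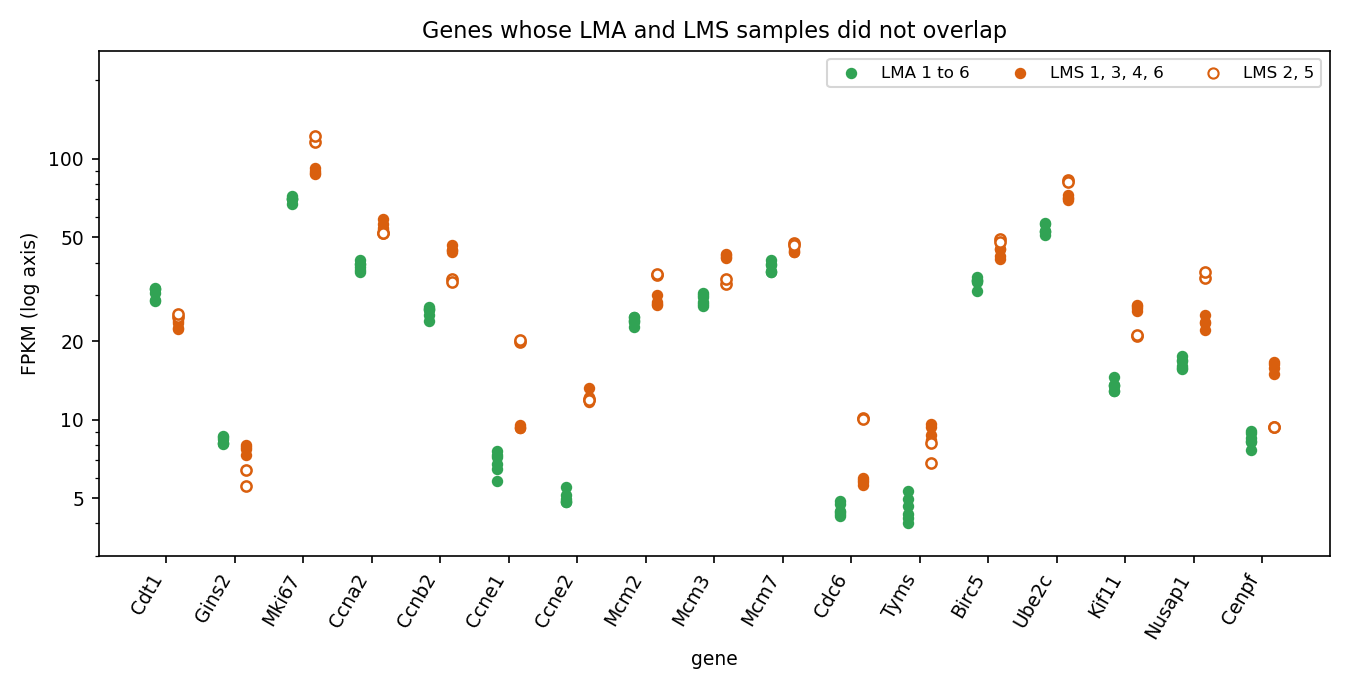
FPKM on a log axis of the 17 members whose LMA and LMS samples do not overlap, each point being 1 sample, with LMA left of LMS. Cdt1 and Gins2 are higher in every LMA sample, and the other 15, drawn from Mki67 to Cenpf, are lower in every LMA sample.

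LMS against LM, which shares its LMS samples with the comparison above, asked what the CTLA4 step adds to LPPC/MP. In limma Cdt1 was lower in LMS (log2 fold change −0.33, SE 0.08, adjusted p = 0.011; 7.96% of all genes were lower) and no member was higher (13.3% of all genes). In 15 members, Ccne1, Ccne2 and Mki67 among them, every LMS sample lay above every LM sample (19.2% of all genes), and Cdt1 and Gins2 lay below LM in every LMS sample (13.6% of all genes). Without N 1, 14 members were higher (16.0% of all genes) and 1 lower (9.09% of all genes), and without N 1, N 2, LMS 2 and LMS 5, 32 were higher (40.5% of all genes) and 2 lower (27.6% of all genes). Ccne1 (log2 fold change 0.79, SE 0.36, adjusted p = 0.142), Ccna2 (log2 fold change 0.49, SE 0.55, adjusted p = 0.615) and Mki67 (log2 fold change 0.54, SE 0.62, adjusted p = 0.627) did not pass with all samples. Here too the standard errors rest on the spread of all 4 groups, N included. The neutrophil precursor markers summed to 21.8 to 128 FPKM in LMS and 476 to 559 in LM, without overlap, and their part in the result was not tested.

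LMS against N asked whether CTLA4 modulation leaves a difference from no treatment. In limma 0 of 42 members passed (0.0% of all genes), although 12 members and 507 of all genes had an unadjusted p under 0.05, and no member separated the groups (0.489% of all genes did). The smallest adjusted p was 0.618, and the median log2 fold change 0.83 over the members and −0.01 over all genes. Bub1 was at 6.81 to 41.96 (median 38.5) FPKM in LMS and 0.987, 7.44 and 43.7 in N, and Ccne1 at 9.26 to 20.3 (median 9.44) in LMS and 3.81, 18.7 and 10.1 in N. Without N 3, 34 members rose in LMS (12.9% of all genes), and without N 1 none passed (0.0% of all genes). Without N 1, N 2, LMS 2 and LMS 5, Plk1 was lower in LMS (−0.21, adjusted p = 0.0273; 0.244% of all genes were lower), with N 3 as the lone N sample.

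**Figure D5:**
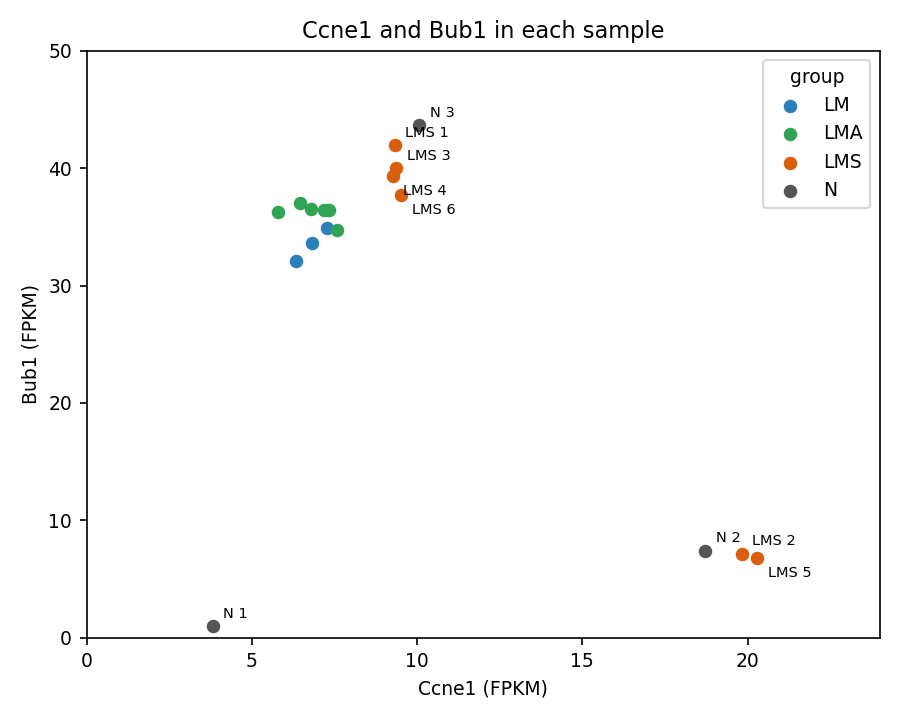
Ccne1 against Bub1 in FPKM, 1 point per sample, for LM, LMA, LMS and N. LM and LMA samples have 5.80 to 7.58 of Ccne1 and 32.1 to 37.0 of Bub1, LMS 2, LMS 5 and N 2 have 18.7 to 20.3 and 6.81 to 7.44, LMS 1, 3, 4 and 6 and N 3 have 9.26 to 10.1 and 37.7 to 43.7, and N 1 has 3.81 and 0.987.

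The pair of Ccne1 and Bub1, chosen after the values were seen, shows how the samples fell. LMS 2, LMS 5 and N 2 had the highest Ccne1 and, after N 1, the lowest Bub1, and LMS 1, 3, 4 and 6 and N 3 had the highest Bub1. LM and LMA lay between them for Bub1 and below both for Ccne1.

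Other genes of the pathway were followed as lists by role. In LMA against N, where 13.6% of all genes rose and 21.9% fell, 6 of 51 other replication factors rose and 3 fell, and 2 of 73 other mitotic genes rose and 1 fell. In both lists this is a smaller share than over all genes in each direction. Of 15 core subunits of the anaphase-promoting complex 2 fell, of 14 G1 cyclins, kinases and drivers 1 fell. Of 19 tested CDK inhibitors and brakes (22 listed) 2 rose and 4 fell, and of 6 genes of the MuvB core and B-Myb 2 rose. Without N 1, 1 of the replication factors rose and 7 fell, and 0 of the mitotic genes rose and 11 fell (7.92% of all genes rose and 15.3% fell). Without N 3, 31 replication factors rose and 2 fell, and 58 mitotic genes rose and 1 fell (27.8% and 38.2% of all genes). Against LMS, where 19.3% of all genes were lower in LMA and 11.3% higher, LMA was lower for 6, 3, 4, 2, 3 and 1 genes of these lists in this order and higher for 1 gene, Lin54. The median log2 fold change of LMA over N was 0.30 for the replication factors and 0.70 for the mitotic genes.

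The smallest adjusted p of these lists belonged to Anapc5 and Trp53. Trp53, the tumour suppressor that halts the cycle after DNA damage, averaged 33.2 ± 0.854 FPKM in LMA against 55.4 ± 11.1 in N (log2 fold change −0.71, adjusted p = 6.11e-05; SD, n = 6 and 3). It was also lower in LMA than in LMS (log2 fold change −0.75, adjusted p = 3.19e-06). Anapc5, a scaffold subunit of the anaphase-promoting complex, averaged 48.1 ± 1.00 FPKM in LMA against 75.4 ± 11.0 in N (log2 fold change −0.63, adjusted p = 2.43e-05; SD), and log2 fold change −0.65, adjusted p = 1.62e-06, against LMS. Mcm9, an MCM relative that acts in recombination repair, averaged 1.68 ± 0.0732 FPKM in LMA against 3.12 ± 0.442 in N (log2 fold change −0.72, adjusted p = 0.000477; SD). These 3 genes passed in LMA against N and in LMA against LMS under all 32 alternatives.

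The calls of the other named genes held to different degrees over the 32 alternatives, and in LMA against N those of Dlgap5 and E2f3 were lost in most, as was that of E2f7 in LMA against LMS. Among the other replication factors, Cdc45, the helicase activator, was higher in LMA than in N (log2 fold change 1.32, adjusted p = 0.0128, passing in 31 of 32 alternatives), and Rpa2, which coats single strands, was lower (log2 fold change −0.40, adjusted p = 0.00828, passing in 30 of 32 alternatives). Rpa2 (log2 fold change −0.50, adjusted p = 0.000271, passing in 32 of 32 alternatives) and Orc2, an origin recognition subunit (log2 fold change −0.54, adjusted p = 0.00073, passing in 32 of 32 alternatives), were lower in LMA than in LMS. Of the mitotic genes, Mad1l1 of the spindle checkpoint was lower against N (log2 fold change −0.92, adjusted p = 0.00269, passing in 31 of 32 alternatives) and against LMS (log2 fold change −0.86, adjusted p = 0.000828, passing in 32 of 32 alternatives). Cdca2 (log2 fold change 1.69, adjusted p = 0.0341, passing in 21 of 32 alternatives) and the spindle protein Dlgap5 (log2 fold change 1.18, adjusted p = 0.0431, passing in 14 of 32 alternatives) were higher against N. Lmnb1, a nuclear lamin (log2 fold change −0.58, adjusted p = 0.0161, passing in 30 of 32 alternatives), and Stmn1, which destabilises microtubules (log2 fold change −0.80, adjusted p = 0.0313, passing in 20 of 32 alternatives), were lower against LMS. Lin54 (log2 fold change 0.55, adjusted p = 0.00305, passing in 31 of 32 alternatives) and Lin9 (log2 fold change 0.48, adjusted p = 0.0147, passing in 27 of 32 alternatives) of the MuvB core, which binds CHR elements, rose against N. Against LMS, Lin54 (log2 fold change 0.35, adjusted p = 0.0143, passing in 32 of 32 alternatives) was higher and Rbbp4 (log2 fold change −0.28, adjusted p = 0.00694, passing in 30 of 32 alternatives) lower.

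Of the E2F pathway, the activator E2f3 was lower in LMA than in N (log2 fold change −0.41, adjusted p = 0.0488, passing in 7 of 32 alternatives) and than in LMS (log2 fold change −0.58, adjusted p = 0.0021, passing in 32 of 32 alternatives), as was the partner Tfdp2 against LMS (log2 fold change −1.46, adjusted p = 0.0107, passing in 32 of 32 alternatives). The atypical repressors E2f8 (log2 fold change −1.21, adjusted p = 0.0232, passing in 32 of 32 alternatives) and E2f7 (log2 fold change −0.67, adjusted p = 0.0373, passing in 14 of 32 alternatives) were lower against LMS. Rbl2, a pocket protein of resting cells (log2 fold change −1.06, adjusted p = 0.0186, passing in 29 of 32 alternatives), and the antiproliferative Tob1 (log2 fold change −0.42, adjusted p = 0.021, passing in 26 of 32 alternatives) fell against N. Of the anaphase-promoting complex, Anapc16 was lower against N (log2 fold change −0.91, adjusted p = 0.0113, passing in 29 of 32 alternatives) and LMS (log2 fold change −0.59, adjusted p = 0.0409, passing in 19 of 32 alternatives), and Anapc13 against LMS (log2 fold change −0.35, adjusted p = 0.0146, passing in 30 of 32 alternatives).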

How the data were processed

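RNA of 18 spleen samples was sequenced, and groups were taken from the sample titles. The authors deposited 1 table per sample with per-base coverage, FPKM and TPM for each gene. The submitters' processing notes name GATK 4.2 and mm10, and the aligner is not given in the sources used here. Deposited FPKM values (normalised by the authors for transcript length and sequenced fragments) were used for all results, and deposited coverage only to compute the aligned gigabases per sample. The TPM column was not used, because assembled loci alone sum to 1000000 in it. Depth bears on each FPKM, but the reads behind single values are unknown, so no interval or floor is given.

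Genes typed protein-coding in GENCODE M21 and averaging 0.5 FPKM or more entered a test on log2(FPKM + 0.5) with limma 3.58.1 (lmFit, eBayes with trend) in R 4.3.3, in 1 fit of all 18 samples and 4 groups, with Benjamini-Hochberg adjustment within each comparison and a threshold of 0.05. Fold changes are on that scale and understate low genes. The 6 comparisons share samples. Tables and plots were made in Python 3.11.15 (matplotlib 3.10.9, scipy 1.17.1, pandas 2.3.3, numpy 2.4.6), and the fit was tested on simulated data. The members and lists were chosen with earlier results of these data known. Fold changes are given for a set of 14 members, for called members, and for up to 3 called genes a pathway list. The alternatives were other pseudocounts, filters, gene sets, scalings, sample weights, the groups alone, a replicate block and samples left out, of which the 2 sets of several samples, and the use of all alternatives for pathway genes, were chosen after the values were seen. For samples with the same replicate number, deviations from the group means were correlated over all genes tested. Only in LMS against LM were these correlations positive at every shared number (0.22, 0.43 and 0.24). In LMS against N they were −0.64, 0.885 and 0.906. No label says what a number shares, and whether these values reflect a pairing was not tested.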

Additional observations from a re-analysis of the deposited data

Results flagged for a closer look

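In 90 groups of 6 samples (LMA and LMS for each of the 42 members and the 3 scores), 5 single samples lay far from the other 5 of their group by Dixon's criterion, and chance gives about 1 in 20. Ccne2 was at 13.3 FPKM in LMS 3, above the 11.7 to 12.2 of the other LMS samples. Plk1 was at 19.7 FPKM in LMA 6, above the 18.1 to 18.6 of the other LMA samples. Mcm6 was at 45.2 FPKM in LMA 5, below the 50.2 to 53.2 of the rest. In LMA 2, Bub1 was at 34.7 FPKM, below 36.3 to 37.0, and Cdca8 at 25.8 FPKM, below 28.8 to 29.7. Groups of 3 were not tested in this way.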

How the results depend on the processing

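Counts of called members kept within 1.5 times under most settings for pseudocount, filter and gene set, and moved with the samples in the fit. The share of all genes called stands in brackets. In LM against N the count of 1 became 2 with median-of-ratios scaling (24.3%), 20 with sample weights (62.9%), 0 with the compared groups alone (0.48%), 33 without N 1, N 2, LMS 2 and LMS 5 (60.2%), 27 without N 3 and LMS 1, 3, 4 and 6 (76.8%), and 0 to 27 with single samples left out (15.5% to 58.2%). In LMA against N the count of 4 became 1 without a filter (21.2%), 8 with rescaling to a common sum (30.5%) or median of ratios (34.8%), 21 with weights (64.8%), 1 with the groups alone (33.6%), 35 and 27 without the same sets (61.6% and 79.9%), and 2 to 28 with single samples left out (23.2% to 66.0%). In LMS against N it became 25 with weights (63.2%), 1 without the first set (5.26%), and 0 to 34 with single samples left out (0.0% to 33.5%). In LMS against LM the count of 1 became 32 with weights (68.9%), 12 with the groups alone (17.1%), 34 and 6 without the sets (68.1% and 75.9%), and 0 to 15 with single samples left out (14.2% to 26.8%). In LMA against LMS the count of 4 became 2 with rescaling (25.7%), 32 with weights (72.5%), 16 with the groups alone (35.1%), 38 and 9 without the sets (72.0% and 78.8%), and 3 to 16 with single samples left out (26.7% to 36.9%). With the replicate block, 1 member passed in LMA against N (28.3%) and 2 in LMA against LMS (29.4%), and the count moved by less than 1.5 times elsewhere, LMS against LM included. Where N 3 is the lone N sample, it is assumed to vary like the others. The median-of-ratios score was 4.59, 4.53 and 4.59 in LM 1, 2 and 3 and 4.61, 4.55, 4.57, 4.62 and 4.63 in LMA 1, 2, 3, 4 and 6. The all-gene median log2 fold change shifted under rescaling by 0.13 for LMA against N and by 0.12 for LMA against LMS.

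Some log2 fold changes changed sign. With single samples left out they ran, in LM against N, over −0.64 to 1.51 for Mki67, −0.54 to 1.38 for Ccna2 and −0.51 to 1.201 for Birc5, and in LMA against N over −0.58 to 1.57 for Mki67, −0.53 to 1.38 for Ccna2, −0.50 to 1.21 for Birc5 and −0.75 to 0.89 for Cdc6, each lowest without N 1. With N 1, N 2, LMS 2 and LMS 5 all removed they were, in LM against N, −0.56 for Mki67, −0.38 for Top2a, −0.61 for Cdk1, −0.61 for Ccna2, −0.85 for Ccnb1, −0.62 for Plk1, −0.46 for Birc5, −0.15 for Pcna and −0.29 for Cdc6. In LMA against N they were −0.50 for Mki67, −0.36 for Top2a, −0.64 for Cdk1, −0.60 for Ccna2, −0.76 for Ccnb1, −0.60 for Plk1, −0.45 for Birc5, −0.24 for E2f1, −0.14 for Pcna, −0.32 for Cdc6, −0.076 for Tpx2, −0.27 for Bub1, −0.23 for Cdca2 and −0.087 for Dlgap5, and in LMS against N −0.21 for Plk1. Foxm1 was at 0.43 in LMS against LM and −0.36 in LMA against LMS without that set, and at 0.40 and −0.32 with sample weights. The cause was not tested. Tyms was past the threshold in LMA against LMS except with rescaling (adjusted p = 0.0581 in limma), the replicate block (0.052) and without N 3 and LMS 1, 3, 4 and 6 (0.109). The reads behind each FPKM are unknown, which limits what low genes such as Chek1 and Tyms can show.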

Other observations

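Cdkn1a, which encodes the CDK inhibitor p21, was chosen after its values were seen because it was nearly off in some samples. It was at 146, 136 and 147 FPKM in LM 1, 2 and 3, 136 to 151 in LMA, 1.34 and 1.30 in LMS 2 and LMS 5, 106 to 113 in the other LMS samples, and 1.79, 1.54 and 118 in N 1, 2 and 3. The 4 low samples are those in which the Y-linked genes were at or near 0. In limma it was higher in LMA than in N (log2 fold change 4.15, adjusted p = 0.04), with all N samples below all LMA samples. This call passed in 19 of 32 alternatives, with log2 fold changes of 0.30 to 6.08 and adjusted p of 5.19e-15 to 0.199. The call was lost without N 1, without N 2 and without any single LM or LMA sample. It was also lost without a filter on low values and with the replicate block. Against LMS, Cdkn1a passed in 3 of 32.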
